A study of Mus musculus with 12 samples.

Results

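E proteins and their Id inhibitors were examined at the chromatin level in mouse embryonic fibroblasts (MEFs) that were being reprogrammed with or without the homeodomain factor PROX1. The 7 genes were the E protein genes Tcf12, Tcf3 and Tcf4 and the Id genes Id1, Id2, Id3 and Id4. Their windows were all accessible regions of the deposited comparison that overlapped a gene body or the 25 kb on either side of it (GENCODE M21, mm10), which gave 144 of 176680 windows. The genes were chosen by family name with group means and listed windows of the same comparison already known, so the values below are descriptions. The genes were chosen by family name with group means and listed windows of the same comparison already known, so the values below are descriptions. Of these, 111 windows lay at the E protein loci and 33 at the Id loci. All 144 were 201 bases wide, and no filter on low values removed any.

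Accessibility was measured by ATAC-seq: Tn5 transposase cuts open DNA and tags it with adapters, so open regions collect reads. The series holds 12 libraries in 4 groups of 3 replicates (MEF, Prox1_OE, 4in1_GFP_OE and 4in1_Prox1_OE), all from wild-type C57BL/6N fibroblasts of embryonic day 13.5. Only the last 2 groups entered the comparison. Both carried rtTA, the doxycycline-dependent transactivator, and the 4in1 vector, which encodes hepatocyte transcription factors. The 4in1_GFP_OE cells also received GFP and the 4in1_Prox1_OE cells FLAG-tagged mouse Prox1, both under tetO control. Cells were collected on day 2 with doxycycline at 2 µg/ml. The fibroblasts came from the distal limbs of several pooled embryos, and the labels do not say whether the replicates were separate cultures. The reporting summary describes independent biological replicates for the experiments in general. If the libraries shared a culture, the spread behind the deposited calls would be technical.

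E proteins are broadly expressed basic helix-loop-helix (bHLH) factors. They bind E-boxes, short DNA elements of the form CANNTG, as homodimers or with tissue-specific class II bHLH partners such as MYOD1. Id proteins have the helix-loop-helix dimerization domain but lack the basic region that contacts DNA. They sequester E proteins in dimers that cannot bind, and their genes are classical targets of BMP signalling through Smad proteins. In fibroblasts and other mesenchymal cells the balance of E and Id proteins is known for limiting entry into muscle, neural and other differentiated fates.

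Values are the authors' group means over 3 libraries, given as normalized reads per window, and a difference is the log2 value of 4in1_Prox1_OE minus that of 4in1_GFP_OE, negative where the window was less accessible with Prox1. The table gives no values per library, so no SD, standard error or p-value accompanies any value here. The spread between libraries entered only through a pair of deposited peak lists, which name the windows the authors called lower or higher with Prox1. A window is said below to have fallen or risen only if it was in one of these lists. In bulk libraries, fewer cells with an open window and less open DNA per cell cannot be told apart.

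The windows that carry the main results read as follows on the plus strand of GRCm38.p6, with every E-box (CANNTG) and every AP-1 element (TGACTCA, or TGAGTCA on the other strand) in capitals. The first pair shows the window that fell most at any of the 7 genes and the Tcf12 window of at least median accessibility that rose most, both intronic. The internal Tcf12 promoter stands for the start sites that fell inside the long E protein genes. The Tcf3 and Id3 windows are the extremes of their loci, and the Id1 window is shown because it holds an AP-1 element beside a pair of E-boxes.
Tcf12 intron, fell (chr9:72076277-72076477): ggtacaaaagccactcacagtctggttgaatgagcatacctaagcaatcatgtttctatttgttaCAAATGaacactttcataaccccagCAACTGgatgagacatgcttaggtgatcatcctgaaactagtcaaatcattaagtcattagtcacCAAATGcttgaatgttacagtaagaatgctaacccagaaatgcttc
Tcf12 intron, rose (chr9:71976123-71976323): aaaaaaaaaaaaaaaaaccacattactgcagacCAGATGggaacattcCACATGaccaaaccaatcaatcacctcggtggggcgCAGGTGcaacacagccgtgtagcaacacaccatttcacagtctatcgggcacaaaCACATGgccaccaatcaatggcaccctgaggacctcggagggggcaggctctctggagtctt
Tcf12 internal promoter, fell (chr9:71896406-71896606): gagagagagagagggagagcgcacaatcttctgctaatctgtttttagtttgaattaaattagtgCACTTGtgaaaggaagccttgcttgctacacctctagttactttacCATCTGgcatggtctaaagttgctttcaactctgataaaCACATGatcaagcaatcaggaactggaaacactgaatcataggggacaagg
Tcf3 intron, rose (chr10:80423671-80423871): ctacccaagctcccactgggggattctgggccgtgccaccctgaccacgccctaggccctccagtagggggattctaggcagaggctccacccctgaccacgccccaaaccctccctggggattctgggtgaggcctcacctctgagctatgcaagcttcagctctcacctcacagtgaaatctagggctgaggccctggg
Id3 upstream flank, fell (chr4:136123323-136123523): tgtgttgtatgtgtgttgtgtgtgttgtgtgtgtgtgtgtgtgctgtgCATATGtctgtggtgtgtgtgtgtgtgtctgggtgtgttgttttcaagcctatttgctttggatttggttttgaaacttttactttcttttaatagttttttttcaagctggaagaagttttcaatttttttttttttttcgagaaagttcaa
Id1 upstream flank, fell (chr2:152727018-152727218): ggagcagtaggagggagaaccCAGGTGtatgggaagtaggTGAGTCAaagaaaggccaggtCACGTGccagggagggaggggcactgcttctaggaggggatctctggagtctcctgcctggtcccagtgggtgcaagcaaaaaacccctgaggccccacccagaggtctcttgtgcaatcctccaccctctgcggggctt
The falling Tcf12 window held 3 E-boxes and no AP-1 element. The rising one held 4 E-boxes, and 1 of them reads CACCTG on the minus strand, a form that E proteins bind. The Tcf3 intron window held no E-box.

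Across the 144 windows the median difference was -0.31 (quartiles -0.73 and 0.08), against -0.42 for all windows of the table. Of the members' windows, 60 (41.7%) were in the list lower with Prox1 and 22 (15.3%) in the list higher with Prox1. Over all windows, 48.2% were listed lower and 14.9% listed higher, so the share of members listed lower was below the background and the share listed higher near it. A drop of 1 or more log2 units was seen in 23 windows (16.0%), against 24.4% of all windows. A gain of that size was seen in 10 windows (6.94%), against 8.33% of all windows. All of these 33 windows were listed. The direction of the median depended on where 0 was placed: it was below 0 as deposited and 0.11 after the median of all windows was set to 0. Summed over the 144 windows, reads with Prox1 were 0.83 times those with GFP, against 0.751 times over all windows.

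Tcf12 and Tcf4 together held 100 of the 144 windows. They also held 20 of the 23 windows that fell by 1 or more, a share of 20.0% of their windows that was below the 24.4% of all windows. Their 7 rises of that size were close to their part of the members' windows. Tcf3 had no falling window and 4 rising ones, while Id3 had 6 falling windows of 12, near the 48.2% of all windows, and no rising one. Median differences ran from -0.39 at Tcf12, -0.35 at Id3 and -0.35 at Tcf4 through -0.27 at Id4, -0.14 at Id1 and -0.12 at Id2 to -0.0023 at Tcf3. Among 16892 protein-coding loci with at least 4 windows, the Tcf3 median lay at the 88.2 percentile and the Tcf12 median at the 36.2 percentile.

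**Figure D1:**
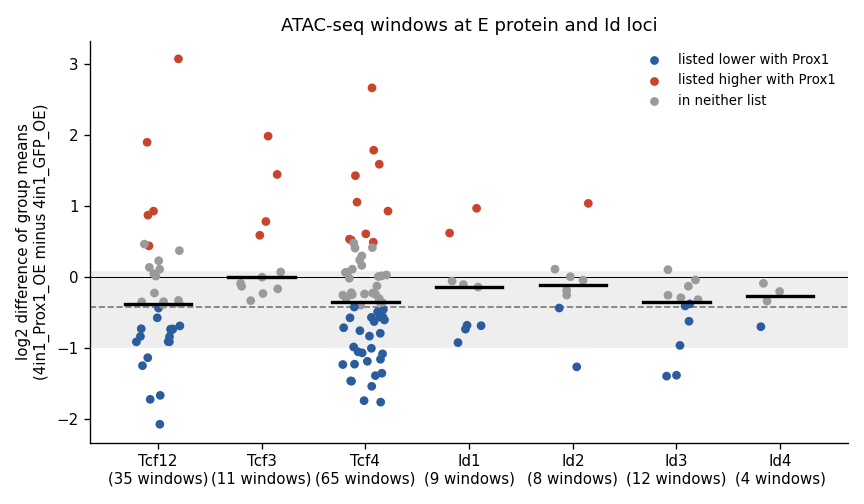
Log2 difference of the group means (4in1_Prox1_OE minus 4in1_GFP_OE) for each of the 144 windows, by locus. Points are windows coloured by deposited list, black bars are locus medians, the dashed line and grey band are the median (-0.42) and quartiles of all windows, and Tcf3 is the locus with no window listed lower.

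At their first start sites the 7 genes were strongly accessible in both groups, and 6 of the 7 strongest promoter windows were in neither list. Id3 was the one that fell, from 759.5 to 492.9 reads (difference -0.62). ID3 is, like ID1, a classical target of BMP signalling, and its promoter difference lay at the 8.53 percentile of the promoter windows of 15073 protein-coding genes. Among those promoter windows 18.5% were listed lower and 4.92% listed higher, and 2.71% and 1.18% differed by at least 1 downwards and upwards. The promoter window of Id4 had 870.6 reads with GFP and 755.4 with Prox1. That of Id2 had 786.9 and 692.1, and that of Id1 653.4 and 592.4. The E protein promoters were at 595.6 and 468.1 reads for Tcf12 (encoding HEB), 460.6 and 410.3 for Tcf3 (E12 and E47) and 659.4 and 603.7 for Tcf4 (E2-2). Differences of the 6 unlisted promoters ran from -0.35 at Tcf12 to -0.13 at Tcf4, against a median of -0.20 over all promoter windows. These 6 turned positive when the median of all windows was set to 0, whereas the Id3 value was then -0.21.

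Ordered by reads with GFP, the promoters ran Id4, Id2, Id3, Tcf4, Id1, Tcf12 and Tcf3. With Prox1 the order was Id4, Id2, Tcf4, Id1, Id3, Tcf12 and Tcf3, so Id3 moved from the third place to the fifth. Without values per library it could not be told which neighbours in either order differed beyond their spread.

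Promoters inside the long E protein genes were read separately. Tcf12 and Tcf4 are transcribed from several start sites, and internal ones can give shorter proteins that keep the bHLH domain. Within 1 kb of a start site more than 10 kb into the gene, 4 of 8 windows fell, beside 22.3% of all promoter windows of the table and 48.2% of all windows. This split was made after the values had been seen. Near the first start sites of all 7 genes, 1 of 9 windows fell. The difference between the first and internal sites was not tested. The internal Tcf12 promoter, 215.5 kb into the gene, went from 152.6 to 91.8 reads (difference -0.73), while a second window near the same start site, from 115.7 to 99.0 reads (-0.23), was in neither list. Another 3 falls lay at internal start sites of Tcf4. The one 72.5 kb into the gene went from 245.7 to 115.9 reads (-1.08), and that at 177.9 kb from 382.5 to 214.7 (-0.83). A window near the start sites at 249.6 kb went from 192.3 to 136.9 (-0.49). The other internal Tcf4 promoters, at 157.3, 250.1 and 269.1 kb, had differences of 0.03, -0.25 and 0.06 and were in neither list. Internal windows were also less accessible than the first promoters, between 68.5 and 451.7 reads with GFP against 406.9 to 870.6, and whether this bears on the calls was not tested.

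**Figure D2:**
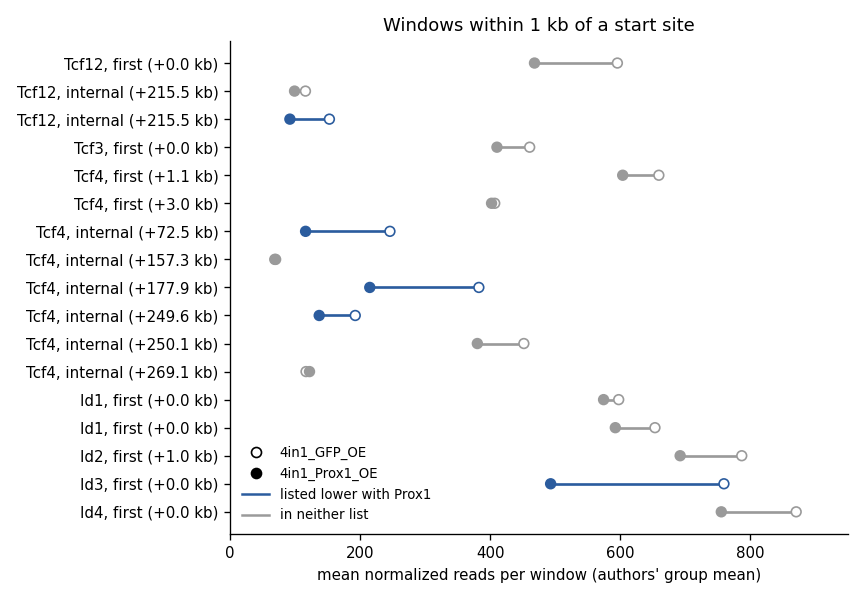
Mean normalized reads in 4in1_GFP_OE (open circles) and 4in1_Prox1_OE (filled circles) for the 17 windows within 1 kb of a start site, with the distance of that start site from the gene's first base. Blue marks the 5 windows listed lower with Prox1, of which 4 lie at internal start sites of Tcf12 and Tcf4 and 1 at Id3.

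Tcf12 spans 269 kb on the minus strand (chr9:71842688-72111871) and had 35 windows, of which 17 fell (48.6%), 5 rose (14.3%) and 13 were in neither list, shares near the 48.2% and 14.9% of all windows. HEB, its product, partners class II factors in muscle, neural and lymphoid cells. Most of its windows and most of the falls were intronic. The deepest fall, 35.5 kb into the gene, went from 341.1 reads with GFP to 80.9 with Prox1, 4.22-fold lower (difference -2.08). A group of 4 neighbouring windows that all fell included it, with differences of -1.25, -1.14 and -0.91 at the other 3. Further in, the window at 188.0 kb went from 139.5 to 42.2 reads (-1.72), and that at 212.7 kb, just before the internal promoter, from 243.4 to 76.6 (-1.67). The window at 231.0 kb, between a pair of unlisted windows, went from 16.9 to 142.5 reads (difference 3.08), and its mean accessibility over both groups lay at the 35.1 percentile of all windows. Another at 135.6 kb went from 60.6 to 226.2 reads (1.90).

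Tcf4 was the largest locus, with 65 windows over 346 kb of gene body and its flanks (chr18:69343356-69689079, plus strand). E2-2, its product, is known for roles in plasmacytoid dendritic cells and neurons. Here 30 windows fell (46.2%), 10 rose (15.4%) and 25 were in neither list, again near the 48.2% and 14.9% of all windows. At 96.9 kb an intronic window went from 271.2 to 79.8 reads (difference -1.76), and one at 75.3 kb from 127.0 to 37.9 (-1.74). Between them, at 89.5 kb, a window rose from 26.2 to 166.0 reads (2.67). The next window, at 93.0 kb, fell from 145 to 55.2 reads (-1.39), so changes of opposite sign lay within a few kilobases of each other. Further rises lay at 13.4 kb (63.4 to 218.9 reads, 1.79), 155.9 kb (26.8 to 80.7, 1.59) and 118.1 kb (39.1 to 105.3, 1.43). Beyond the 3′ end, 6 of 9 windows fell and 1 rose, with a median difference of -0.99. The strongest of them, at 361.6 kb from the gene start, went from 506.8 to 243.9 reads (-1.05).

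**Figure D3:**
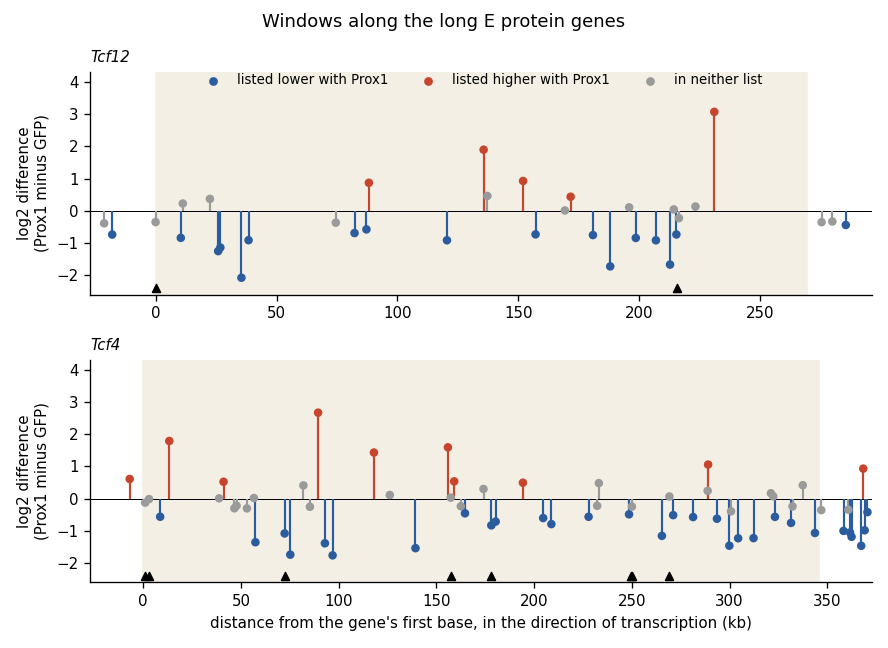
Log2 difference (4in1_Prox1_OE minus 4in1_GFP_OE) of each window along Tcf12 and Tcf4, against distance in kb from the gene's first base in the direction of transcription. The shaded span is the gene body and triangles are start sites with a window within 1 kb, and the highest rises reach 3.08 and 2.67.

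Falls next to rises were found in both genes. Among 64 neighbouring pairs at Tcf4, 13 pairs were both listed lower, 9 joined a falling with a rising window and 0 were both listed higher. At Tcf12 these counts were 7, 5 and 0 of 34 pairs. The shares at Tcf4 (20.3%, 14.1% and 0%) and Tcf12 (20.6%, 14.7% and 0%) stood beside 25.8%, 12.2% and 3.10% of all neighbouring pairs of the table, so pairs that rose together were rare everywhere.

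Tcf3 had rising windows and no falling one. The gene, which encodes the E12 and E47 splice forms of E2A, had 11 windows (chr10:80409514-80433647, minus strand), of which 4 rose (36.4%) and 0 fell, beside 14.9% and 48.2% of all windows. An intronic window 9.9 kb into the gene rose from 57.5 to 227.6 reads, 3.96-fold (difference 1.99). A window 10.9 kb upstream rose from 38.1 to 103.8 reads (1.45), one 2.3 kb upstream from 153.1 to 263.2 (0.78), and one in an intron at 18.7 kb from 147.0 to 221.0 (0.59). The other 7 windows had differences between -0.33 and 0.07. Among them, a window with 559.4 reads with GFP lies in the body of Mex3d, and one with 494.7 in that of Uqcr11. Neither is necessarily a Tcf3 element, and both enter the sum of reads. Reads summed over the Tcf3 windows were 1.07 times as high with Prox1, the only sum of the 7 above 1. All 11 differences were above 0 after the median of all windows was set to 0. Just outside the 25 kb limit upstream, the next window was listed lower, from 117.3 to 45.1 reads (-1.38). By median difference and shares of windows changed by at least 1, the loci most like Tcf3 among 8719 were Brsk2, Rsg1 and Abtb1, each also with 11 windows.

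The 4 Id genes are short, between 1.16 and 4.80 kb, so nearly all of their windows lay in the flanks. Of the 33 windows, 13 (39.4%) fell and 3 (9.09%) rose, with a median difference of -0.26. Both shares were below those of all windows (48.2% and 14.9%), whose median was -0.42. Id3 (chr4:136143497-136145755, plus strand) had 12 windows, of which 6 fell, and 11 of the 12 differences were below 0, as were 72.3% of all differences in the table. Beside the promoter, the window in its intron went from 433.7 to 333.6 reads (-0.38). The deepest falls lay on both sides at a distance. The window 20.1 kb upstream went from 342.5 to 130.0 reads (-1.40), that 24.4 kb from the start on the other side from 211.7 to 81.1 (-1.38), and that 7.3 kb upstream from 205.9 to 105.5 (-0.96). In between, windows with 713.2 and 735.8 reads with GFP kept differences of -0.13 and -0.32 and were in neither list. With the median of all windows at 0, only 4 of the 12 differences lay below 0, and the listed intronic window and 1 listed flank window were no longer among them.

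Id1 (chr2:152736251-152737410, plus strand) had an unlisted core and listed flanks on both sides. Its start site window had 597.6 reads with GFP and 574.3 with Prox1 (difference -0.06), and windows 1.1 kb before and 3.2 kb after it differed by -0.14 and -0.11. Around this core 4 of the 9 windows of the locus fell, by between 0.68 and 0.92, the lowest of them 9.1 kb upstream (134.9 to 71.1 reads). That share, 44.4%, was near the 48.2% of all windows. Another 2 rose (22.2%, beside 14.9% of all windows), at 12.1 kb upstream (91.6 to 140.7 reads, 0.62) and 17.9 kb downstream (67.4 to 131.9, 0.97). The latter and the falling window at 22.2 kb lie in the body of Cox4i2, so neither is necessarily an Id1 element.

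Id2 (chr12:25093799-25097140, minus strand) followed the same layout. Of its 8 windows 25.0% fell and 12.5% rose, beside 48.2% and 14.9% of all windows. In the whole table, too, fewer promoter windows (22.3%) than windows outside promoters (50.9%) were listed lower. The 5 windows between 13.4 kb upstream and 4.7 kb after the gene start had differences from -0.25 to 0.11, and none was listed. The listed windows lay outside them, 1 that rose at 13.1 kb (44.0 to 90.3 reads, 1.04) and 2 that fell, at 24.5 kb (140.8 to 58.5, -1.27) and 20.9 kb upstream (165.9 to 122.5, -0.44). Id4 (chr13:48261228-48266026, plus strand) had 4 windows, and its sole listed one, 23.5 kb upstream, fell from 184.3 to 113.4 reads (-0.70). That window overlaps the noncoding gene A330033J07Rik.

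**Figure D4:**
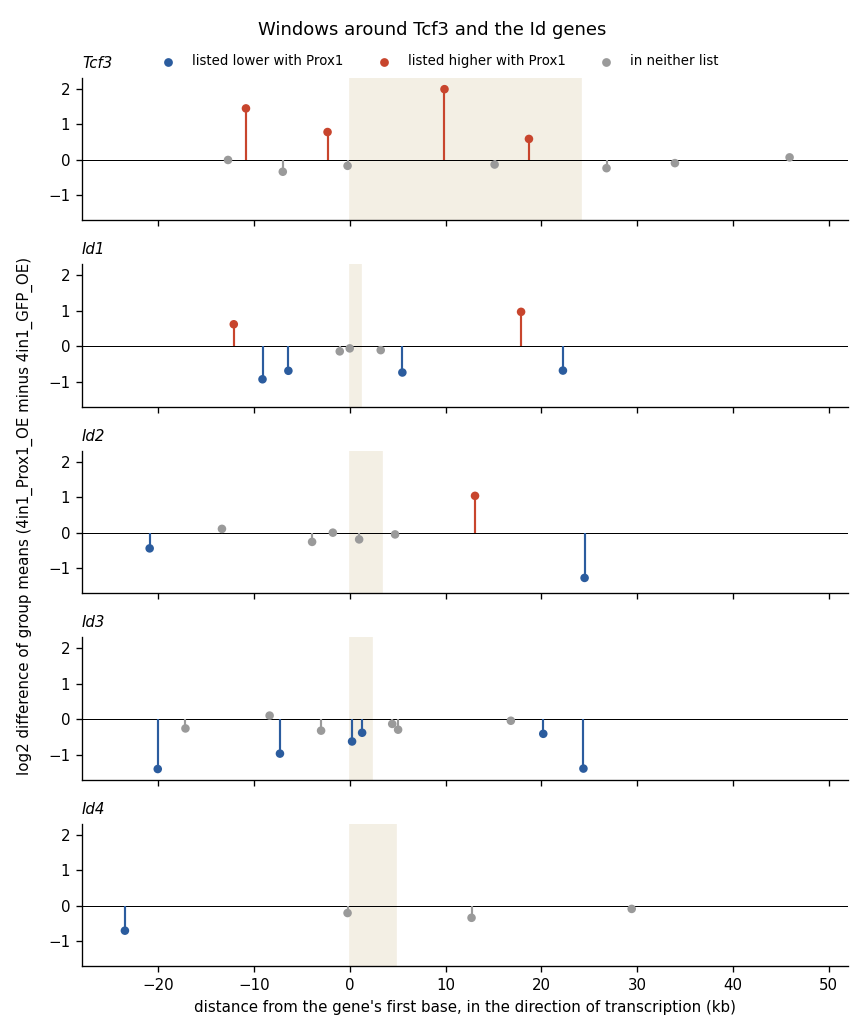
Log2 difference (4in1_Prox1_OE minus 4in1_GFP_OE) of each window around Tcf3 and the 4 Id genes, against distance in kb from the gene's first base in the direction of transcription. Shading marks the gene body. Tcf3 has 4 windows listed higher and 0 listed lower, and Id3 has 6 listed lower and 0 listed higher.

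Levels with GFP differed between the lists, which follows in part from how they were made, since both rest on the difference from the same GFP values. Members' windows in the lower list had a median of 171 reads with GFP and 81.0 with Prox1, while those in the higher list had 62.0 and 129. Those in neither list had 173 and 172. The same order held in the whole table, where the medians with GFP were 160 for the lower list and 40.7 for the higher list. In the 25% of windows with the highest mean accessibility, the members' median difference was -0.24 against -0.38 for all windows at that level, and in the next 25% -0.33 against -0.61. The third group differed in the same direction (-0.35 against -0.52), whereas in the 25% with the lowest accessibility, which held 16 members' windows, the medians were -0.31 and -0.10. At the 25 kb limit, the 14 outermost windows inside had a median difference of -0.43 and the 14 next ones outside -0.37.

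Sequence elements were counted on both strands of each window. The E-box CACCTG was in 5 of 60 falling windows (8.33%), 5 of 22 rising ones (22.7%) and 11.0% of all windows of the table. Over the whole table it was in 7.18% of the windows listed lower and 17.6% of those listed higher. CAGCTG, the other E-box of E proteins, was in 18.3% of the falling and 13.6% of the rising members' windows, against 15.9% of all. In the whole table the order was the reverse, with 15.2% of the windows listed lower and 17.7% of those listed higher. The AP-1 element TGACTCA was in 22 of 60 falling (36.7%) and 2 of 22 rising windows (9.09%), against 23.0% of all windows. Over the whole table it was in 32.7% of the windows listed lower and 15.5% of those listed higher. Tcf4 alone had 14 of those 22. Any E-box, a form that includes both, was in 73.6% of members' windows and 68.9% of all, so its presence separates little at this window length. The TEAD element GGAATG was in 23.6% of members' windows (20.1% of all), and the GC-rich element GGCGCC in 10.4% (3.53% of all). GGCGCC lay mostly at the Id loci (12 of 33 windows), with 3 of 111 windows at the E protein loci. The FOXA element TGTTTAC was in 2.78% of members' windows (2.65% of all), with 2 of the 22 rising, both at Tcf4, and 0 of the 60 falling. Of all windows listed higher 3.25% held it, and of those listed lower 2.57%. None of the 17 promoter windows of the members held CACCTG or CAGCTG, which 11.8% and 13.0% of all promoter windows hold. The falling windows had a median GC content of 45.0% and the rising ones 49.8%, and the part of base composition in these shares was not tested.

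The partners of E proteins, the BMP pathway upstream of Id genes and the E protein cofactors were read at their promoter windows. Of 35 class II bHLH genes 28 had one, and 7 of these rose while 2 fell, with a median difference of -0.016, beside 4.92% and 18.5% of all protein-coding promoter windows. These promoters were weaker, with a median of 165 reads with GFP against 528 for all protein-coding promoter windows. Among all windows, 29.4% of the 25% with the lowest accessibility were listed higher, and 2.87% of the 25% with the highest. The rises were not tested against promoters of like accessibility. Over whole loci 14.9% of 228 windows were listed higher, the same as in the table, and 25.4% listed lower, against 48.2% of all windows. The largest rise was at Nhlh1, a neuronal bHLH gene (29.7 to 122.4 reads, 2.04). It was followed by the oligodendrocyte lineage genes Olig1 (110.4 to 257.9, 1.22) and Olig2 (78.1 to 169.5, 1.12), the muscle determination gene Myod1 (64.3 to 118.2, 0.88), and then Bhlha15, Neurog3 and Ptf1a (between 0.84 and 0.73). The 2 that fell were the mesenchymal genes Twist2 (568.6 to 398.6 reads, -0.51) and Msc (280.4 to 209.0, -0.42).

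The BMP and Smad list gave 25 of 27 promoters, of which 9 fell and 0 rose (median -0.25), beside 18.5% and 4.92% of all protein-coding promoter windows. The ligand gene Bmp5 fell most (89.9 to 44.8 reads, -1.005). Falls also included the receptor genes Acvrl1 (-0.67) and Bmpr1b (-0.65), the coreceptor genes Eng (-0.51) and Rgmb (-0.42), the ligand gene Bmp6 (-0.50), the antagonist gene Chrd (-0.53), and the inhibitory Smad gene Smad7 (-0.37). Both activating parts and inhibitors of the pathway were thus among them. Over whole loci 51.8% of 369 windows were listed lower, close to the table's share. All 13 cofactor genes had a promoter window, and 1 of them fell, that of Lmo4, a LIM-only adaptor (766.2 to 545.3 reads, -0.49), while the highest difference was 0.21 at Cbfa2t3.

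**Figure D5:**
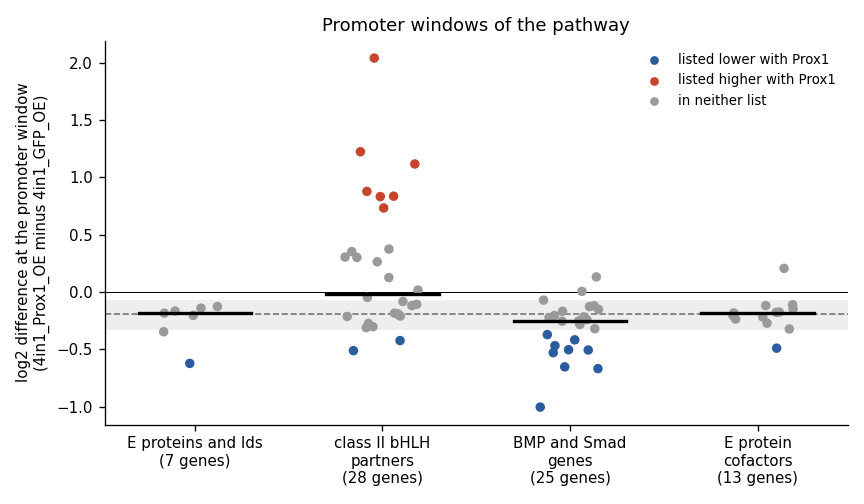
Log2 difference (4in1_Prox1_OE minus 4in1_GFP_OE) at the promoter window of each gene with one, for the 7 members and 3 pathway lists. Black bars are medians, and the dashed line and grey band are the median (-0.19) and quartiles of the promoter windows of 15073 protein-coding genes. The rises (7 genes) are all in the class II bHLH list.

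Several facts of the whole comparison stand beside these values. Windows over Prox1 coding exons went from 16.1 to 6847, 13.8 to 2078 and 3.42 to 1632 reads, in the direction of the labels, and vector DNA and the chromosomal gene cannot be told apart there. All 10 fibroblast marker genes had a promoter window, with 156 to 660 reads with GFP and 115 to 535 with Prox1, and 6 of them fell and 0 rose, beside 18.5% and 4.92% of all protein-coding promoter windows. Twist1 and Twist2 stand in this list too. Of the markers of other cells, the promoter windows of Pecam1 (-1.59) and Tek (-0.68) for endothelium and of Csf1r (-1.71) for blood fell. Cdh5, the other endothelial marker, and the blood markers Adgre1 and Ptprc had no promoter window. Those of Epcam (1.00) and Krt18 (0.74) for epithelium rose, and Cdh1 had a difference of 0.13, although over these 3 whole loci 19 of 34 windows were listed lower and 4 higher (median -0.56). None of the 3 hepatocyte markers Alb, Apoa1 and Ttr had a promoter window. The share of such cells in either group and its part in the results were not tested.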

How the data were processed

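ATAC-seq libraries of day 2 MEFs were compared between 4in1_GFP_OE and 4in1_Prox1_OE. Per the submitters' notes and the study's methods, the authors used Trimmomatic 0.38 for trimming, Bowtie2 2.3.4.3 for alignment to mm10, SAMtools 1.10, Picard 2.18.16 and bedtools 2.27.1 for filtering, and DiffBind 3.4.11 for the comparison of peaks. Which peak caller was used is uncertain, MACS2 2.1.2 in the methods or Genrich in the reporting summary. The methods give the normalization only by reference to the DiffBind vignette, and whether peaks were called on pooled reads is not given in the sources used here. The deposited concentrations are log2 mean normalized reads over both groups or within 1 group, and they were turned here into reads. The deposited fold, p-value and FDR columns are the authors' own comparison and were not used. The 2 deposited peak lists (85140 and 26271 windows) matched the table by chromosome, start and end, and every listed window had the sign of its list. Listed windows differed by at least 0.30 and unlisted ones by up to 1.58, so the lists do not follow size alone.

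Depth per library is unknown, replicates could not be compared, and counting intervals could not be given. Total reads in windows were 23306866 with Prox1 and 31016876 with GFP, a ratio of 0.751, and no scaling to equal totals was evident. Group means were used without a test, and list membership served as the call. The members and gene lists were chosen with earlier results of these data known. Named windows per gene were the strongest within 1 kb of a start site, the largest fall and rise at or above the median concentration, the strongest of all and those next to the 25 kb limits. Other windows were picked after their values were seen. Loci alike were found by Euclidean distance over the median and the shares changed by 1 or more, among loci with at least 10 windows. Genes came from GENCODE M21 and sequences from RefSeq's GRCm38.p6. The alternatives were 3 ways of placing 0, other flanks, sizes of change and filters. Values were computed with pandas 2.3.3 and numpy 2.4.6 under Python 3.11.15, and drawn with matplotlib 3.10.9. The procedure was tested on simulated data.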

Additional observations from a re-analysis of the deposited data

How the results depend on the processing

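No paired analysis was possible because only means of each group were at hand, without single libraries. Leaving out a replicate, a replicate block and a refit with edgeR or DESeq2 were therefore not run, and depth limits could not be set. With 0 at the median of all windows (a shift of -0.42), at equal totals (-0.41) and at the median of the 10% of windows with the highest concentration (-0.26), the median over all members went from -0.31 to 0.112, 0.107 and -0.0425. The E protein median went from -0.33 to 0.0866, 0.0816 and -0.0682, and the Id median from -0.26 to 0.160, 0.155 and 0.00482. Windows lower by 1 or more went from 23 to 8, 8 and 13, and those higher by 1 or more from 10 to 18, 18 and 15. Of the 60 windows listed lower, 58, 58 and 60 stayed below 0, and all 22 listed higher stayed above 0 in each case. With 100 kb flanks, 59 of 306 windows (19.3%) were lower and 20 (6.54%) higher by 1 or more. The lists then held 138 (45.1%) as lower and 43 (14.1%) as higher. A size of 0.5 gave 53 lower and 20 higher windows, and a size of 1.5 gave 6 and 6. Requiring both a listing and a change of 1 left 23 and 10. Without Tcf12 and Tcf4, chosen after seeing the data, the median was -0.18 for all members and -0.0023 for E proteins. Of the 44 windows left, 3 were lower and 3 higher by 1 or more (6.82% each). Those listed lower were 13 (29.5%) and those listed higher 7 (15.9%). The cause of these shifts was not tested, beyond the added or removed windows. Under the limits set for no change 28 recomputed values counted as unchanged, among them the 15 windows higher by 1 or more given above. Some could not move, such as the Id median without Tcf12 and Tcf4.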

Other observations

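Windows with the E-box CACCTG were counted apart at E protein and Id loci, a split looked at after the values had been seen. Of the 19378 windows of the table that hold it, 23.8% were listed higher with Prox1 and 31.6% listed lower. At the E protein loci 12 of 111 windows held it, of which 5 were listed higher with Prox1, 1 listed lower and 6 in neither list. The 5 were spread over Tcf12 (2), Tcf3 (1) and Tcf4 (2), and their differences ran from 0.44 to 1.90. At the Id loci 7 of 33 windows held it, of which 0 were listed higher, 4 listed lower (2 at Id1 and 2 at Id3) and 3 in neither list. The counts are small, the windows of 1 locus are not replicates, and no test was made.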
